A study of Mus musculus with 10 samples.

Results

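Regions of open chromatin called in the cochlea at postnatal day 5 (P5) and at neither P2 nor P8 numbered 4151, of 64911 regions in all (6.39%) and of 47561 called at P5 (8.73%). They were found by merging the peaks of 3 deposited lists, 1 per age, wherever peaks overlapped by at least 1 bp, and keeping the regions that held a P5 peak and no P2 or P8 peak. The members were thus chosen by the calls at the 3 ages, and the counts, ranks and places that follow are a description of these lists. The tissue was whole cochlea, both sides of each animal combined, from neonatal CD1 mice, an outbred stock: 3 animals for P2, 3 for P5 and 4 for P8. No cell type was sorted, and no treatment or genotype differed between the ages. The study is about bringing GJB2, which encodes connexin 26 of gap junctions, into chosen cells, and the ages were profiled to find regulatory elements used during development. Each age has 1 list and no list per animal, so no difference between ages has a replicate check, and in bulk tissue fewer cells of a type cannot be told apart from less open chromatin per cell.

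ATAC-seq inserts sequencing adapters where DNA is not wrapped tightly by nucleosomes, so that active promoters and enhancers appear as peaks. Promoters with many CpG dinucleotides tend to be open in most cell types, whereas enhancers and CpG-poor promoters are more often open in particular cell types or stages. In the first postnatal days the mouse cochlea is not yet hearing: the hair cells mature, the greater epithelial ridge beside them secretes the tectorial membrane, and the stria vascularis and its fibrocytes take shape.

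The promoters of 4 genes are shown because they stand for the kinds of P5-only call at gene starts. A promoter here is the stretch of 300 bases in RefSeq (GRCm38.p6, the same build as mm10) from 250 before to 50 after a start, and the 250 bases before the start are printed 5′ to 3′ on the gene's strand, with each CpG in capitals. Those of Tectb, the gene of the tectorial membrane protein beta-tectorin (chr19:55180476-55180725, plus strand), and Slc17a8, the gene of the vesicular glutamate transporter of inner hair cells (chr10:89621250-89621499, minus strand), were under P5-only regions far from any P2 or P8 peak. Those of Srsf5, a splicing factor gene (chr12:80945249-80945498, plus strand), and Sp4, a zinc finger transcription factor gene (chr12:118301441-118301690, minus strand), were under P5-only regions with P2 and P8 peaks next to them.
Tectb: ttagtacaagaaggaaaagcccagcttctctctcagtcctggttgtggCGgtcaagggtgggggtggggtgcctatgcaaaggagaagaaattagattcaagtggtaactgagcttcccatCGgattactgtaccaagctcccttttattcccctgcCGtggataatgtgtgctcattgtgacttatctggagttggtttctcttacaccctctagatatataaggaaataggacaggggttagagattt
Slc17a8: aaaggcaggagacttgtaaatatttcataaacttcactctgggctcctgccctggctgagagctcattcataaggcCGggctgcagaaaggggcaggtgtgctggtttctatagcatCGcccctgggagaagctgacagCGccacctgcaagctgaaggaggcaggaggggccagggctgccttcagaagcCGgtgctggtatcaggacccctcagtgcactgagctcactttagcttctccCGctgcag
Srsf5: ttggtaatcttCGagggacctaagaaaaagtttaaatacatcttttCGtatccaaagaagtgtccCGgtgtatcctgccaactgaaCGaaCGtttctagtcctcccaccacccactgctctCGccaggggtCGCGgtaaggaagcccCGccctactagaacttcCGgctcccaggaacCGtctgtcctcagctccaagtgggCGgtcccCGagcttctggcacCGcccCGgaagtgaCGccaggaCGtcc
Sp4: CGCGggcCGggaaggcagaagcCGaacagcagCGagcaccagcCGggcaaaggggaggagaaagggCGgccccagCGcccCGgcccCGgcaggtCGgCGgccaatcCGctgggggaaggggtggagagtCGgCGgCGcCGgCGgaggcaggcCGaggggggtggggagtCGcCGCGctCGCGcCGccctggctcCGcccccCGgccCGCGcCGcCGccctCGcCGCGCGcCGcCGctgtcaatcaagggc
The printed stretches hold 3 CpG for Tectb, 5 for Slc17a8, 17 for Srsf5 and 37 for Sp4.

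The P5-only regions stood low in the P5 list. The authors' ranking value of a peak, on a −log10 p scale, was turned into a within-list percentile with 100 at the top. The members had a median percentile of 14.1 and quartiles of 5.68 and 25.6, against a median of 22.4 for regions called at P2 and P5, 27.5 for those called at P5 and P8 and 65.0 for those called at all 3 ages. In the upper 50% of the list lay 131 members (3.16%), and 26 reached percentile 70 and 6 percentile 90. The highest ranked 547 of 47683 peaks. Of the regions called at P5, P5-only regions made up 35.0% (Wilson 95% interval 33.7 to 36.4, which like all intervals here covers counting error only) in the lowest 10% of the ranking, 14.5% (13.5 to 15.5) in the third lowest, 3.93% (3.41 to 4.52) in the fifth and 0.126% (0.0577 to 0.274) in the highest. Regions called only at P2 or only at P8 were low in their own lists too, with median percentiles of 16.7 and 16.1.

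**Figure D1:**
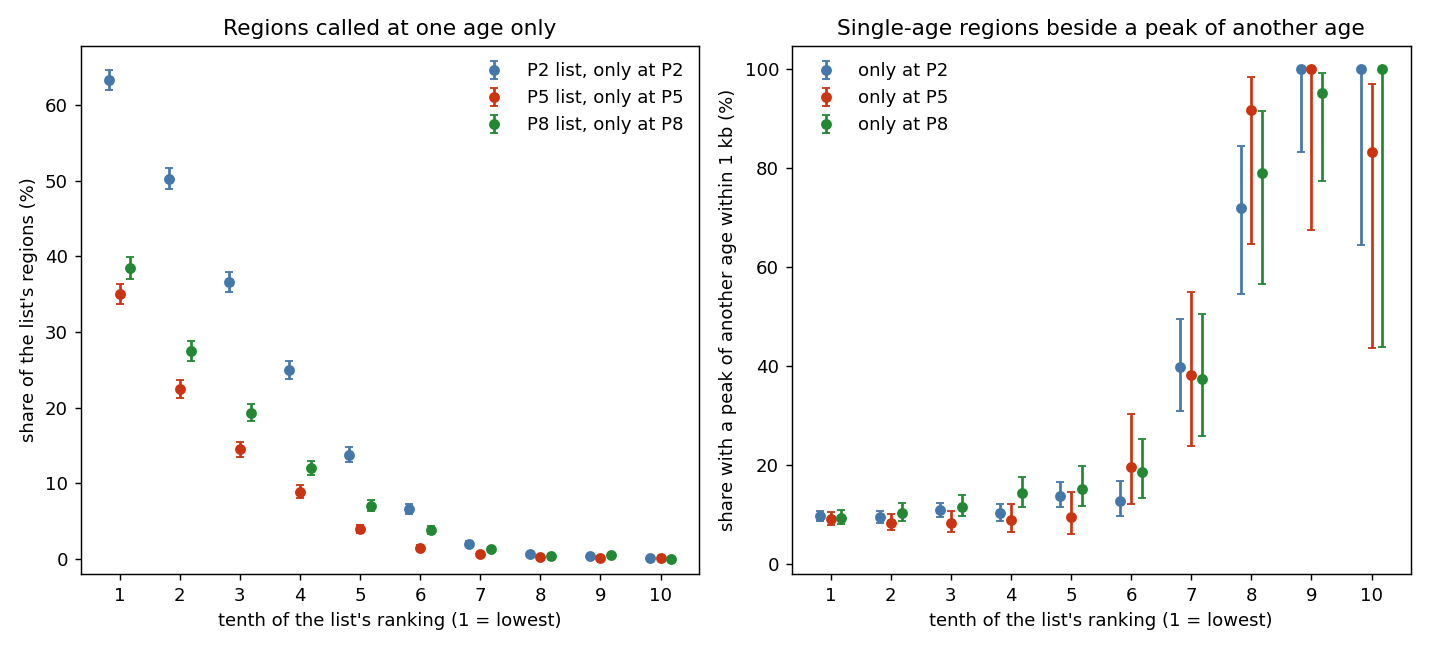
Left, the share (%) of each list's regions that were called at that age only, by 10% steps of the list's own ranking from lowest to highest; right, the share (%) of those single-age regions with a peak of another age within 1 kb. Bars are Wilson 95% intervals; the P5-only share falls from 35.0% to 0.126%, while the share beside another age's peak is near 9% in the lower steps and 11 of 12, 8 of 8 and 5 of 6 in the 3 highest.

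The files also give, for each P5 peak, the 2 input peaks that were matched to make it. An irreproducible discovery rate (IDR, the expected share of matched peaks that do not repeat between the inputs) of at most 0.01 was reached by 37.3% of the 4153 peaks in P5-only regions, 59.9% of those shared with P2 alone, 66.9% of those shared with P8 alone and 93.9% of those of all 3 ages. The input peaks were narrower, with medians of 536 and 560 bp against 739 and 751 bp for peaks of all ages. Their summits lay a median of 22 bp apart, against 11 bp. The ranking value of a peak is the smaller of those of its 2 inputs, and these shares and medians were not taken within bands of the ranking. Whether they differ apart from the low rank of the members was therefore not tested.

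The 26 members at percentile 70 or above differed from the other members in what lay next to them. A P2 or P8 peak was within 1 kb of 24 of these 26 (92.3%, 75.9 to 97.9), but of 355 of the 4020 members below percentile 50 (8.83%, 7.99 to 9.75). Of the 26, 22 overlapped the full span of a P2 or P8 input peak, of which the deposited list shows a window of 499 bp, and 17 (65.4%) lay within 1 kb of a gene end. Of the same 26, 9 had at least 1 input peak that also gave another line of the P5 list. Overlap of such a span, a shared input peak or both held for 25 of the 26. Over all members, 161 overlapped such a span or shared an input peak, and 3990 were neither. The P2-only and P8-only regions at percentile 70 or above had a peak of another age within 1 kb in 49 of 58 and 38 of 43 cases.

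Zbtb11, a zinc finger protein gene, and Srsf5 show the 2 arrangements. The highest P5-only region, chr16:55974887-55975385 at percentile 98.9, lay inside Zbtb11, 932 bp from a region over its start called at all 3 ages. Both P5 windows carry the same input peaks, 55973462 to 55974869 and 55973355 to 55975187, and the same percentile. At Srsf5 the P5 window chr12:80945225-80945723 (percentile 91.5) lay 200 bp from a window called at P2 (94.5) and P8 (92.6) at 80945924 to 80946422. The input peaks of all 3 ages there were between 1150 and 1392 bp wide and covered most of both windows. At Dtx1, a gene of a Notch regulator, the P5 window (79.2) was 3 bp from a window called at P2 (78.1) and P8 (59.8), and at Nfkbia, the gene of an NF-kappa-B inhibitor, the gap was 8 bp at P8. Like Zbtb11, Acy1 (97.7), an aminoacylase gene, Bod1l (94.1), Sp4 (89.5) and Lyrm2 (80.7) both shared an input peak with another P5 line and overlapped the span of a P2 or P8 input peak. At Sp4 only 1 of the 2 input peaks was shared, and the other P5 line had percentile 95.4. Fndc3b (91.1) and Lzic (81.6) shared an input peak without overlapping such a span. Crebrf (91.7), Fadd (87.7), which encodes a death receptor adaptor, Cdc42ep2 (83.7), Gnpda1 (83.3), Nasp (82.7), a histone chaperone gene, and H2bc6 (79.6), a histone H2B gene, overlapped such a span without sharing an input peak.

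The exception among the 26 was a region inside Phka1, which encodes a regulatory subunit of phosphorylase kinase, at chrX:102588492-102588990. It had percentile 72.5 and lay 55.0 kb from the nearest P2 or P8 peak. Further down the ranking, regions without a neighbour were common: 71 of the 131 members in the upper 50% lay more than 5 kb from any P2 or P8 peak. They included regions inside Itprid1 (69.5) and Cped1 (63.3), a region 52.1 kb from Ppfia2 (64.4), and chr11:27496956-27497454 (68.3), which had no protein-coding gene within 100 kb. None of these 4 overlapped another age's span or shared an input peak.

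Over all members, 2904 (69.96%) lay more than 5 kb from any P2 or P8 peak and the median gap was 10.3 kb. A P2 or P8 peak was within 1 kb of 406 (9.78%, 8.91 to 10.7) and within 500 bp of 246. Of the 2256 regions called at P2 and P8 and not at P5, 51 had a P5-only region within 1 kb. At the limit of the rule, 22 members had a gap of 25 bp or less, with a median percentile of 22.6, and 22 P5 peaks that overlapped a P2 or P8 peak by 25 bp or less, and so were left out, had 24.5.

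**Figure D2:**
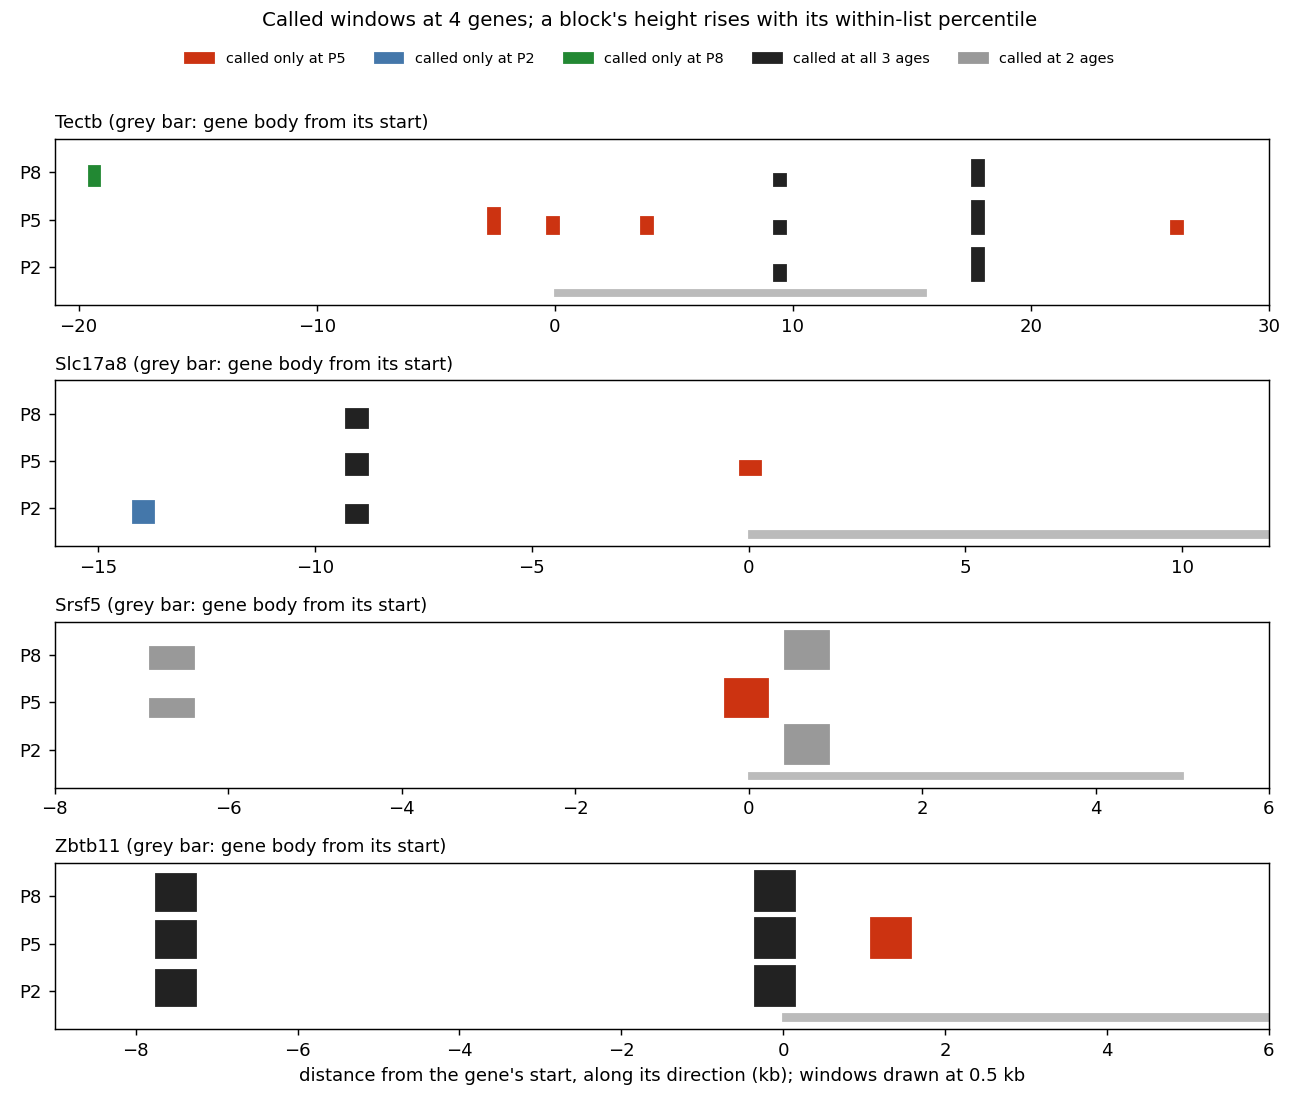
Called windows at Tectb, Slc17a8, Srsf5 and Zbtb11 by distance from the gene's start (kb), with rows for P2, P5 and P8, colour for the ages at which the region was called and block height rising with within-list percentile. At Tectb and Slc17a8 the P5-only windows stand by themselves, while at Srsf5 the P5 window is 200 bp from a window of P2 and P8 and at Zbtb11 it is 932 bp from a window of all 3 ages.

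P5-only regions lay mostly away from genes' ends and starts. Of the members, 363 had their middle within 1 kb of an end of some annotated gene (8.74%, 7.92 to 9.64), compared with 15.9% (15.2 to 16.6) of P2-only, 11% (10.1 to 11.9) of P8-only and 37.4% (36.8 to 37.9) of all-age regions. Regions called at P5 and P8 were close to them, at 9.43% (8.57 to 10.4). Inside a protein-coding gene were 49.8% (48.3 to 51.3), against 55.8% of P2-only and 56.1% of P8-only regions. No protein-coding gene was within 100 kb of 695 members (16.7%, 15.6 to 17.9), compared with 9.26% (8.71 to 9.83) of P2-only, 11.4% (10.5 to 12.3) of P8-only, 15.2% (14.2 to 16.4) of P5 and P8 and 5.89% (5.64 to 6.15) of all-age regions. Whether a region lay in an exon, intron or UTR was not analysed here.

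**Figure D3:**
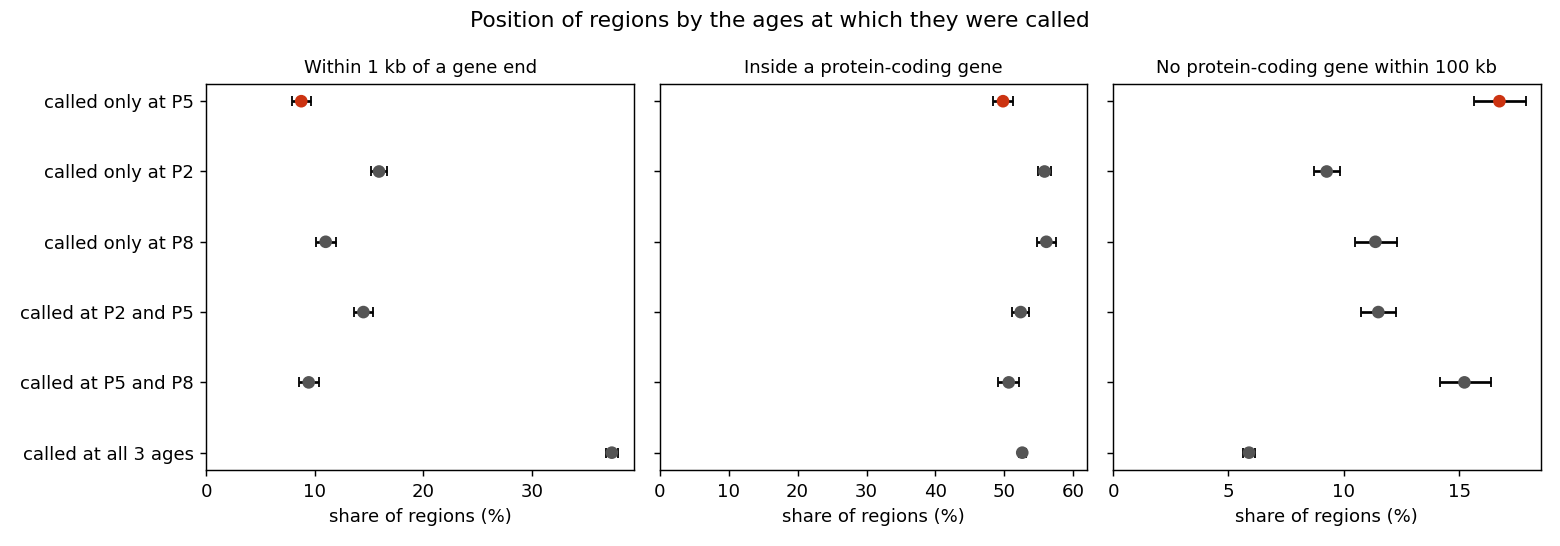
Share (%) of regions within 1 kb of a gene end, inside a protein-coding gene, and with no protein-coding gene within 100 kb, by the ages at which they were called; bars are Wilson 95% intervals. P5-only regions have the lowest share near gene ends among the 6 groups drawn (8.74%) and the highest share without a gene (16.7%), with the regions of P5 and P8 nearest to them.

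Rank goes with position, so the shares were also taken within bands of the P5 ranking. Near gene ends were 8.53%, 7.91% and 8.90% of members below percentile 20, from 20 to 40 and from 40 to 70. In these bands, regions of all 3 ages had 19.7%, 18.8% and 22.4%, and those of P2 and P5 15.3%, 13.7% and 12.3%. Regions of P5 and P8 were close to the members, with 9.09%, 8.72% and 9.48%. The share of members without a gene within 100 kb was 14.8%, 19.8% and 25.0% in these bands. It was 6.23%, 7.56% and 7.86% for regions of all ages, and 12.2%, 14.9% and 19.2% for those of P5 and P8. At percentile 70 and above, the members near gene ends were the 17 of 26 given above (65.4%, 46.2 to 80.6), beside 58.7% of all-age regions. Regions of P5 and P8 had 28.6% there, and those of P2 and P5 38.8%. The median distance to a start in the RefSeq promoter table, which holds none for chromosome 18, was 32.8 kb for P5-only, 20.9 kb for P2-only, 24.5 kb for P8-only and 10.5 kb for all-age regions. Members inside genes lay in long ones, with a median host length of 142 kb against 104, 114 and 68.3 kb, and 26.7% of them in genes of 300 kb or more. Regions of P5 and P8 were nearest to the members here too. Their median start distance was 28.4 kb and their median host length 127 kb, with 23.2% in genes of 300 kb or more.

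Few starts were covered. The P5-only regions covered at least 250 of the 300 bases of 38 promoters of protein-coding genes. For 14 of these no P2 or P8 peak lay within 5 kb, and their promoters held a median of 5.5 CpG. For 18 a P2 or P8 peak lay within 1 kb, with a median of 17.5 CpG. The median was 7 over all 38, 13 over all 21263 promoters in the table and 23 over the 8522 covered by all-age regions. It was 16 over the 359 promoters covered by P2-only regions and 12 over the 76 covered by P8-only regions. The 14 include those of Tectb (4 CpG in the 300 bases, percentile 15.9) and Slc17a8 (7 CpG, 6.84), and also Naalad2 (43.6), a peptidase gene, Pnliprp1 (39.9), a pancreatic lipase-related gene, Fmo2 (32.2), a flavin monooxygenase gene, and Hsd11b1 (7.53), the gene of an enzyme that activates glucocorticoids. With every list shortened to its 43878 highest peaks, so that the lists were of equal length, 9 of the 14 were P5-only. Slc17a8 and Hsd11b1 were not, while Tectb, Naalad2, Pnliprp1 and Fmo2 were. Shortening only removes calls, so a P5-only region was lost there by its low rank in the P5 list, never by a call at another age. Regions could also be gained where a P2 peak was cut. Among the 18 are Srsf5 (20 CpG) and Sp4 (42 CpG).

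Motifs were sought in these promoters on both strands, and matches of different motifs may overlap by some letters. The GC box GGGCGG was in 2 of the 14 promoters without a neighbouring peak and 11 of the 18 with one, against 46.2% of all promoters. The CCAAT box was in 3 and 6 (38.2% of all), and the TATA box TATAAA in 2 and 2 (12.6%). The E box CANNTG was in all 14 of the former and 12 of the latter (69.0%). The CREB core site TGACG was in 0 and 7 (23.6%), and the AP-1 site TGANTCA in 1 and 1 (6.99%). With 14 and 18 promoters these are descriptions of letters, not of bound factors.

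P5-only regions were spread over the genome. They made up between 6.34% (chromosome 7) and 11.5% (chromosome 3) of the regions called at P5 on a chromosome, leaving out Y, where 3 of 6 were P5-only. Another P5-only region lay within 50 kb of 924 members (22.3%, 21.0 to 23.6) and within 10 kb of 191 (4.60%), and the median neighbour was 150 kb away. The same shares within 50 kb were 54.0% for P2-only and 34.0% for P8-only regions, but these groups hold more regions, so the values are not on an equal footing. Of windows of 100 kb laid along the chromosomes, 3253 held 1 member, 381 held 2, 37 held 3, 5 held 4 and 1 held 5. The window with 5 lies on chromosome 12 from 35200001 to 35300000. For 2 of its members the nearest protein-coding gene was Snx13, a sorting nexin gene, 60360 and 77807 bp away. The others had no such gene within 100 kb, and no P5-only region lay within 50 kb of Snx13. The members of this window had percentiles from 8.74 to 29.2, and the other region there was called only at P2. Windows with 4 lay at Cobll1 on chromosome 2, at Pgm5, a phosphoglucomutase-like gene of cell junctions, on chromosome 19, at Ppp1r12b and Lgr6 on chromosome 1, at Ifitm3, Ifitm6 and B4galnt4 on chromosome 7, and on chromosome 1 from 185700001 to 185800000, where no protein-coding gene was near. At Pgm5 the 4 lay within 23.6 kb of each other. Ifitm3 and Ifitm6 belong to a family of similar interferon-induced genes, and the sources used here do not say how reads shared between copies were treated.

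With each region given to its nearest protein-coding gene within 100 kb, 3456 members fell to 2682 genes, of 15796 genes with any region. They were 7.93% of the 43556 regions called at P5 that had such a gene. A single P5-only region was all that 2127 of the genes had, while 408 had 2, 98 had 3 and 49 had 4 or more. The genes with P5-only regions had a median length of 64.0 kb, compared with 21.9 kb for the 12235 genes that had P5 regions but no P5-only region. A longer gene has more room for regions of any class, so this difference is no finding about P5-only regions. Genes with P2-only or P8-only regions were not compared in this way. For 249 of the 2682 genes every region called at P5 was P5-only, and 168 had no region at P2 or P8 at all, beside 15796 genes with any region. A gene with a single region of any class is among the 168 whenever that region is P5-only. The same counts were not made for genes of P2-only or P8-only regions, so they are no finding about P5-only regions. Of these 168, 5 had 2 P5-only regions: Ccdc172, Gm14461, Pnliprp1, Pnpla7, a lysophospholipase gene, and Rgs21, a regulator of G protein signalling. The pair of Gm14461 was at percentile 3.46, those of Ccdc172 at 22.0 and 47.6, and those of Pnliprp1 at 37.8 and 39.9. With lists of equal length Gm14461 had no P5-only region and Rgs21 had 1, while Ccdc172, Pnliprp1 and Pnpla7 had 2 each.

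The genes with the most P5-only regions were long. Of the 15 at the top, 14 were over 400 kb, and together they had 82 P5-only of 321 regions called at P5 (25.5%), of which 73 lay inside the gene. Because the genes were ranked by this count, the share is no finding, and long genes have more room for regions of any class. Auts2, a gene of brain development, had 8 of 38. Pde4b, a cyclic AMP phosphodiesterase gene, had 6 of 18, Gpc6, a glypican gene, 6 of 21, Rora, the gene of a nuclear receptor, 6 of 25 and Tenm4, a teneurin gene, 6 of 32. With 5 each came Ppp1r12b, a myosin phosphatase subunit gene (of 12), Pard3, a cell polarity gene (of 13), Col25a1, a transmembrane collagen gene (of 15), Erc2, an active zone gene (of 16), Mecom, a zinc finger transcription factor gene (of 16), Tenm2 (of 21), Dlgap1, a postsynaptic scaffold gene (of 22), Slit3, a guidance factor gene (of 22), Rbms3 (of 24) and Frmd4a (of 26). Per 100 kb of gene, these counts came to between 0.406 for Tenm2 and 2.48 for Ppp1r12b, the shortest of them at 201 kb. Few of their P5-only regions ranked high: those of Rora ran from percentile 12.8 to 25.3, of Ppp1r12b from 17.6 to 31.6, of Auts2 from 5.68 to 42.8 and of Slit3 from 5.88 to 14.99. The exceptions were 1 of Gpc6 at 70.7, which lay 777 bp from a P2 peak, and 1 of Tenm2 at 58.2. With every list shortened to its 43878 highest peaks, Auts2 had 7, Rora 7 and Ppp1r12b 5, whereas Slit3 and Rbms3 had 2 and Pde4b, Tenm4, Pard3, Col25a1, Erc2, Dlgap1 and Frmd4a 3.

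**Figure D4:**
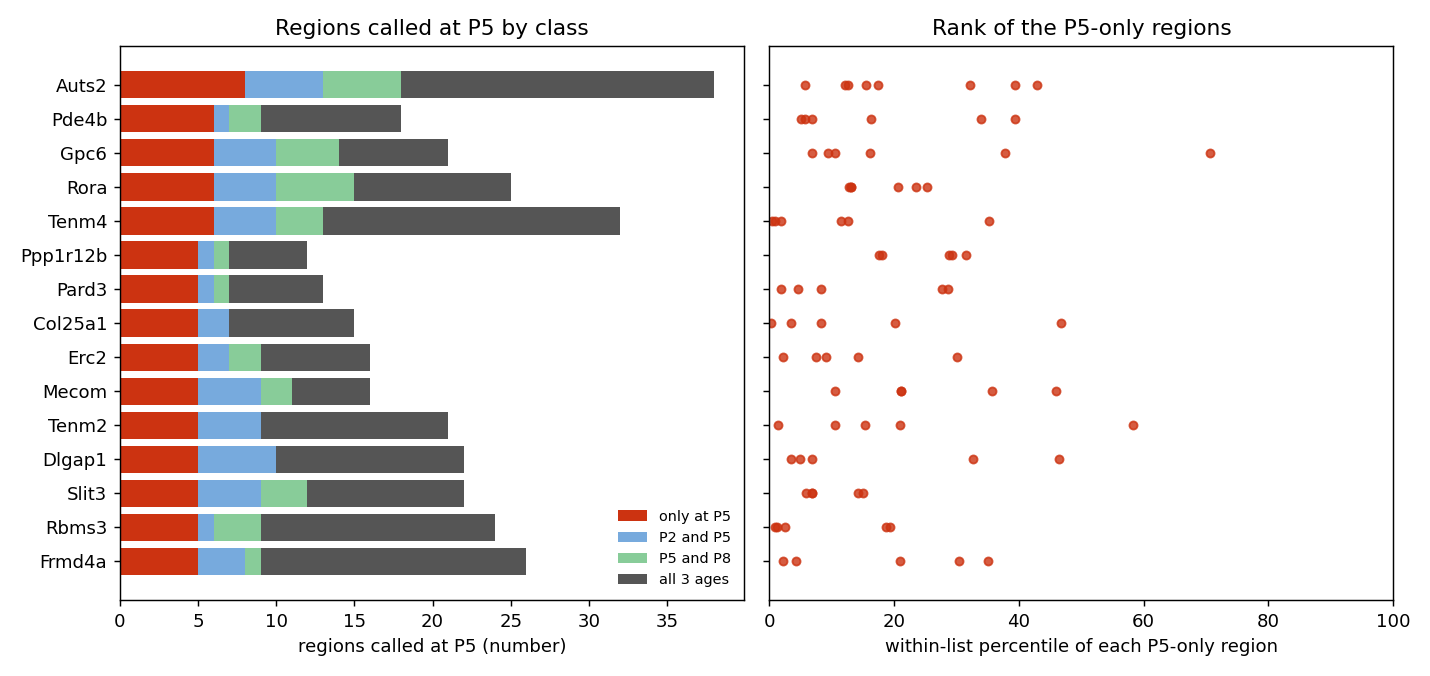
Left, number of regions called at P5 for each of the 15 genes with the most P5-only regions, split by the ages at which they were called; right, the within-list percentile of each P5-only region of these genes, 1 point per region. Auts2 has 8 P5-only of 38 regions and Ppp1r12b 5 of 12, and all points but 1 of Gpc6 (70.7) and 1 of Tenm2 (58.2) lie below percentile 50.

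Gene lists were made for cochlear cell types, for other cell types and for general groups such as cell cycle genes. In each, the share of P5 regions that were P5-only was read against the 7.93% over all genes. It was above that share in 15 of 25 lists, and in 3 the interval lay wholly above it: the stria vascularis intermediate cell and melanocyte list, with 10 of 59 (16.9%, 9.48 to 28.5), the spiral ligament fibrocyte and otic mesenchyme list, with 14 of 96 (14.6%, 8.89 to 23.0), and the greater epithelial ridge and tectorial membrane list, with 13 of 94 (13.8%, 8.26 to 22.2). No interval lay wholly below it. These intervals are not adjusted for the number of lists, regions of 1 gene are not independent, and some genes are in more than 1 list. With the lists shortened in that way, 9 lists were above the share over all genes, and the 3 lists had 13.7%, 13.5% and 14.8%, beside 7.35% over all genes. When a P2 or P8 peak within 500 bp also removed a region, they had 13.6%, 14.6% and 12.8%. No intervals were computed for these shares, so whether they would lie wholly above the share over all genes was not tested.

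Regions called at 1 other age only were also common in some of these lists. The P8-only share of the regions called at P8 was 12.7% in the intermediate cell list, 18.4% in the fibrocyte list and 17.3% in the greater epithelial ridge list, beside 10.5% over all genes. The P2-only share of the regions called at P2 was 23.7%, 25.9% and 13.98% in the same order, beside 19.4%. Whether the P5-only share stood out from those of the other ages was not tested.

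In the greater epithelial ridge list the 13 P5-only regions fell to 8 genes. Tectb had 3 of its 5 P5 regions, Otogl, which encodes an otogelin-like glycoprotein, 3 of 9, and Otog, the gene of otogelin, 1 of 2. At Tectb on chromosome 19 the members lay at 55177919 to 55178417, before the start (percentile 47.3), at 55180420 to 55180918, over the start (15.9), and at 55184353 to 55184851, inside the gene (16.04). The nearest P2 or P8 peak was 5.10 kb from the last of them. Other P5 regions near them, inside the gene at 55189951 to 55190457 and beyond it, inside Gucy2g, at 55198251 to 55198757, were called at all 3 ages, at percentiles 14.3, 4.27 and 0.743 and at 74.8, 73.3 and 52.0 from P2 to P8. A further P5-only region, at 55206605 to 55207103 inside Gucy2g, had percentile 3.46. The 3 regions of Tectb were P5-only with lists of equal length as well, whereas the 3 of Otogl, at 0.820, 0.820 and 6.84, fell out of the P5 list.

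In the lateral wall lists, Slc7a11, a cystine transporter gene, had 3 of 9 at percentiles 10.4, 22.0 and 26.6, and Prrx1, a homeobox gene of mesenchyme, had 2 of 2 at 24.4 and 44.2. Prrx1 also had 1 region called only at P2, 1 only at P8 and 1 at P2 and P8. Neither of the P5-only regions of Prrx1 lay at a start, being 27.5 and 96.7 kb from the nearest. The one at 44.2 was 62719 bp from the gene, and with regions counted within 50 kb Prrx1 had 1. The melanocyte list had its P5-only regions spread over 8 genes, with 2 each at Mitf, the master transcription factor gene of melanocytes (of 15), and Kit, a receptor gene (of 5), and 1 each at Ednrb, Gpr143, Trpm1, Tyrp1, Cd44 and Met. The P5-only region over the promoter of Ednrb lay 50 bp from a P2 peak. Both regions of Kit lay outside the gene, 1 of them 236 bp from a P8 peak, and Kit had 1 P5-only region when a P2 or P8 peak within 500 bp also removed a region, with lists of equal length and with regions counted within 50 kb, while Mitf had 2 in each. The marginal cell list had 8 of 98 (8.16%), with 3 of 13 at Kcnq1, a potassium channel gene, and 2 of 14 at Shroom3. With lists of equal length Kcnq1 had 1, and with a gap of over 500 bp required Shroom3 had 1.

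The hair cell list had 9 of 71 (12.7%, 6.81 to 22.4). Tmc1, a mechanotransduction channel gene, had 2 of 10, and Slc17a8 had 1, its only P5 region, over the start at 89620956 to 89621454 and 8.56 kb from the nearest P2 or P8 peak. That region ranked low (percentile 6.84) and fell out of the P5 list at equal length, whereas Tmc1 had 2 P5-only regions there too. The supporting cell list had 12 of 140 (8.57%), with 2 each at Lgr5, a progenitor marker (of 7), and Notch1, a Notch receptor gene (of 13), each with 1 at equal length. The spiral ganglion neuron list had 12 of 128 (9.38%), with Runx1 at 3 of 14 and Grm8, a glutamate receptor gene, at 2 of 3; at equal length the list had 6.19%, below the 7.35% over all genes, Runx1 had 1 and Grm8 2. Schwann and satellite glia genes had 3 of 40 (7.50%). The thyroid hormone response list, whose hormone drives cochlear maturation, had 12 of 100 (12%, 7.00 to 19.8), with 2 of 3 at Slco1c1, a hormone transporter gene, which had 1 at equal length.

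Gap junction genes had 2 of 32 (6.25%, 1.73 to 20.1), and 3.70% at equal length. Gjb2 had no P5-only region, and the region over its start, chr14:57104442-57104940, was called at all 3 ages at percentiles 75.4, 63.1 and 70.5. Gjb6, its neighbour and the gene of connexin 30, had 1 P5-only region at 57145573 to 57146071, 12.2 kb from the gene and at percentile 3.46. At equal length this region fell out of the P5 list.

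Other cell types may be present in a dissected cochlea. Macrophage genes had 3 of 26 (11.5%), with 2 at Ptprc, the gene of CD45. Endothelial genes had 7 of 63 (11.1%), with Fli1 at 3 of 12 and Erg at 2 of 7. Skeletal muscle genes had 4 of 34 (11.8%) and brain genes 5 of 48 (10.4%). Lymphocyte genes had 5 of 59 (8.47%), of which 4 were at Ebf1, osteoclast genes 3 of 35 (8.57%), bone genes 5 of 63 (7.94%), chondrocyte genes 7 of 96 (7.29%), with 2 at Sox6, and erythroid genes 1 of 14 (7.14%). Pericyte and smooth muscle genes had 0 of 29, which allows a share of up to 10.3% (3 counts of the total), neutrophil genes 0 of 5, which allows up to 60.0%, and Hox genes 0 of 12, which allows up to 25.0%. Immediate early and stress genes had 8 of 109 (7.34%), with 2 each at Egr4 and Atf3. Cell cycle genes had 2 of 73 (2.74%, 0.755 to 9.45) and housekeeping genes 2 of 45 (4.44%). With lists of equal length the shares of macrophage (4.17%), brain (2.38%) and skeletal muscle genes (6.90%) were below the 7.35% over all genes, and Ptprc, Egr4 and Sox6 had 1, 1 and 0 P5-only regions. Erythroid genes then had none, pericyte genes had 3.57% and cell cycle genes 5.56%, while endothelial genes had 11.9%. With a gap of over 500 bp required Erg and Atf3 had 1 each. The part of such cells in any of these shares was not tested.

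**Figure D5:**
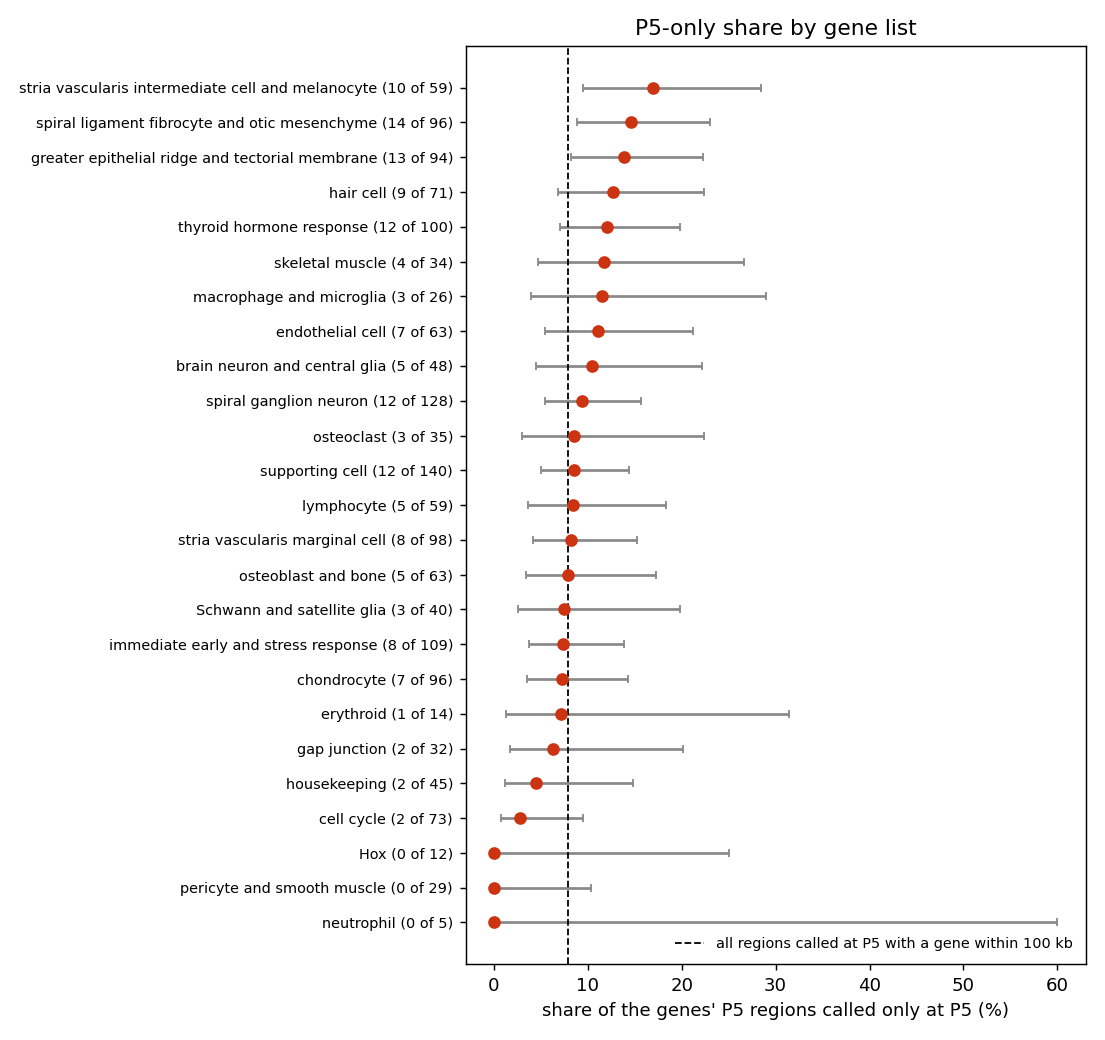
Share (%) of the P5 regions of each gene list that were called only at P5, with Wilson 95% intervals and the counts in the labels (for the 3 lists at 0, the bar ends at the share that 3 counts would give); the dashed line is the 7.93% over all genes. The 3 lists at the top, 16.9%, 14.6% and 13.8%, have intervals that begin above the line, and the intervals of all other lists include it.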

How the data were processed

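ATAC-seq peak lists of P2, P5 and P8 cochlea were used, 1 per age. Per the submitters' processing notes, Trimmomatic 0.33, Subread 1.4.6-p3, MACS2 2.1.0 and mm10 were used; settings, read shifting, pooling and the animals behind each input are not stated in the sources used here. The deposited lists have the 20 columns of the IDR method: a ranking value in −log10 p-value units, equal to the smaller of those of 2 inputs, and a −log10 IDR, for an IDR of at most 0.05 in every line. Starts were read as counted from 0, uncertain by 1 bp. Depth is unknown, as the lists hold no read counts.

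Regions, gaps, nearest genes (RefSeq, GRCm38.p6) and Wilson intervals were computed with Python 3.11.15, pandas 2.3.3 and scipy 1.17.1, and checked on simulated lists. With 1 list per age no p-value was computed. Named genes were Gjb2, Gjb6, the 15 with the most P5-only regions, those of the 15 highest regions and of the windows with 4 or 5, and up to 2 per list; others were chosen after their values were seen. Some genes that the rule takes are not reported here. Members and lists (550 of 550 symbols matched) were chosen with earlier results of these data known.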

Additional observations from a re-analysis of the deposited data

How the results depend on the processing

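The number of P5-only regions was 4503 when a shared call needed an overlap of at least 250 bp, 3905 when a P2 or P8 peak within 500 bp also removed a region, 3555 with lists of equal length, and 131 with only the upper 50% of the P5 list. Of the 3555, 2735 were P5-only in the full lists too. With an overlap of 250 bp the share near gene ends was 10.7% and the share with a P2 or P8 peak within 1 kb 16.8%. With the gap of 500 bp these were 7.22% and 4.10%, and 20.9% had another member within 50 kb. At equal length the median percentile was 20.9, 20.8% had another member within 50 kb, and 9 lists in place of 15 were above the share over all genes, there 7.35%. With the 131 regions of the upper 50% the median percentile was 58.5, the share near gene ends 22.1%, with another member within 50 kb 1.53%, with a P2 or P8 peak within 1 kb 38.9%, and 3 lists were above the share over all genes; the share inside genes was 51.9% (43.4 to 60.3), an interval that holds the 49.8% of all members. Leaving out members that overlapped the full span of a P2 or P8 input peak, an alternative chosen after seeing the data, gave 7.53% near gene ends and 6.61% within 1 kb of a P2 or P8 peak. Within 5 kb of a gene end lay 27.1%, and a neighbour within 10 kb was had by 4.60%. When regions within 50 kb counted for every gene, 8 lists were above 7.93%. That share still counted each region once, for its nearest gene within 100 kb, so the 8 and the 15 are not on an equal footing. The causes were not tested. Of 67 named genes, the count of P5-only regions changed by over 1.5 times for 16 with the gap of 500 bp, 26 at equal length and 11 within 50 kb.

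No paired analysis was possible because each age has 1 list. Leaving out an animal was not possible for the same reason, and depth per sample is unknown.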
